A study of Mus musculus with 12 samples.

Results

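Histone genes were followed in mouse gastric cancer cells that carry knockouts of the tumor suppressors Nf2 and Rasa1. The members are the protein-coding genes whose symbol names a histone of the H1, H2A, H2B, H3 or H4 family, and they were chosen by symbol alone. The rule found 75 genes among 18926 genes in the count tables, of which 13983 are protein-coding. One symbol, H13, belongs to histocompatibility 13 and encodes no histone, so it is counted apart and leaves 74 histone genes. Of these, 64 are cluster genes (5 for H1, 17 for H2A, 18 for H2B, 12 for H3 and 12 for H4), with 51 on chromosome 13, 10 on chromosome 3, 2 on chromosome 11 and 1 on chromosome 6. The other 10 are called variant genes here because their description names no histone cluster, namely H1f0, H1f10, H2afx, H2afz, H2afv, H2afj, H3f3a, H3f3b, H3f3c and H3f4. This grouping does not go by position. H2afj starts near the cluster gene H4f16 on chromosome 6 (136808248 and 136803993), and H3f4 near H2aw on chromosome 11 (58961711 and 58954685). A further 5 symbols matched but are not annotated as protein-coding and were left out. All 75 members passed the filter on low counts.

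The cells were S1, a line from a gastric tumor of a mouse with conditional alleles of Cdh1 (1 allele), Trp53 and Smad4 (both alleles each), so every group shares these losses. Stable Cas9 and lentiviral guide RNAs made the knockouts, and which guides or clones gave each library is not given in the sources used here. There were 4 groups of 3 libraries: control cells, cells labelled Rasa1-KO, Nf2-KO cells and cells labelled Rasa1 and Nf2 double-KO. The labels call the cells monolayer cells, whereas the growth protocol and the study's text describe tumorspheres, which are floating spheres grown without attachment. The source of the replicates is not given in the labels and the study's legend calls them technical, so the p-values may measure technical spread alone.

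The knocked-out genes do not sit with all of the labels. Nf2 stood at 55.4 to 61.0 CPM (counts scaled to library size) in control libraries, at 13.2 to 14.3 in Nf2-KO libraries, at 11.6 to 12.1 in the libraries labelled Rasa1-KO and at 56.4 to 62.6 in the libraries labelled double-KO. Rasa1 was at 60.5 to 78.5 CPM in control, 97.2 to 101 in Nf2-KO, 30.4 to 34.5 in labelled Rasa1-KO and 17.7 to 23.3 in labelled double-KO libraries. The libraries labelled double-KO thus held Nf2 at the control level (log2 fold change 0.02 ± 0.09 SE, edgeR adjusted p = 0.934), while those labelled Rasa1-KO held little of it (fell by 2.29 ± 0.09, edgeR adjusted p = 2.9e-08). The names of the deposited tables give these 2 groups the other way round from the sample labels. If the labels were exchanged, each comparison with control below would belong to the other genotype and the last comparison would change sign. The comparison of Nf2-KO with control rests on neither.

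A nucleosome is DNA wrapped around a core of histones H2A, H2B, H3 and H4, and the linker histone H1 binds where the DNA enters and leaves it. Most core and linker histones come from clustered, intronless genes that are transcribed in S phase, when new DNA has to be packaged. Their mRNAs end in a stem-loop that the protein SLBP binds, not in a poly(A) tail, so they are lost from libraries primed on poly(A). These libraries were made from total RNA after removal of ribosomal RNA and keep them. Variant genes mostly lie elsewhere in the genome, many of them carry introns and poly(A) tails, and they are expressed outside S phase as well. H3f3a and H3f3b both encode H3.3, H2afz and H2afv the H2A.Z proteins, H2afx the H2A.X that is phosphorylated at DNA breaks, and H1f0 the H1.0 that builds up in non-dividing cells.

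The stem-loop was read from the transcripts to see which members carry it. The letters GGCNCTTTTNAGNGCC were searched on the transcript strand in the annotated bases after the stop codon (GENCODE transcripts, GRCm38), and 41 histone genes held a match. The forms below are shown because they separate the families, with the paired stem in capitals and the loop in lower case.
Stem-loop of 26 genes, among them H1f2, H1f3 and H1f4: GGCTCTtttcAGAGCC
Stem-loop of 6 H4 genes, among them H4c4 and Hist1h4n: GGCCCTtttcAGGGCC
Stem-loop of H2bc12, H2bc3, H3c3, H3c6 and H3c7: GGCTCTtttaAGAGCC
Stem-loop of H4c14 and H4c9: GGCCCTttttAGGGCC
Stem-loop of H2afx: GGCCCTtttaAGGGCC
Stem-loop of H2ac20: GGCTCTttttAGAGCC
The H1f4 copy lies at chr13:23621782-23621797 on the minus strand, 40 bases after the stop codon. The H4c4 copy lies at chr13:23581950-23581965 on the plus strand, 36 bases after the stop. The H2afx copy lies at chr9:44335240-44335255 on the plus strand, 46 bases after the stop, and H2afx was the 1 variant gene with a match among the 8 that had a coding transcript. Of the 46 cluster genes annotated for at least 60 bases past the stop, 38 held a match. The form with C and G in the middle of the stem belonged to H4 genes and H2afx, and the form with T and A to H1, H2A, H2B and H3 genes.

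Promoters were compared by 4 short motifs, in a window of 250 bases before to 50 bases after the start of each gene (RefSeq, GRCm38.p6), on both strands. A promoter was given for 68 of the 74 histone genes. TATAAA, a core promoter element, was in 57.6% of 59 cluster promoters and in 7.77% of 11103 promoters of protein-coding genes. CCAAT was in 86.4% of cluster promoters against 39.6% of all. ATTTGCAT (the octamer bound by Oct factors) was in 20.3% against 1.55%, and AAACACA (described as the H1 box) was in 11.9% against 4.46%. The motifs were split by family. CCAAT was in every H1, H2A, H2B and H3 cluster promoter given but in 3 of 11 H4 promoters, the octamer in 6 of 17 H2A and 6 of 16 H2B promoters and no other cluster promoter, and AAACACA in 4 of 5 H1 promoters, 1 of 17 H2A and 2 of 16 H2B promoters. A match is a description of the letters, not a site; matches of the first and the last of these motifs can overlap and were counted separately.

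The H1 promoters are shown because H1 genes were the histone genes called between the groups labelled Rasa1-KO and double-KO in the fit over 4 groups, and H2ac6 and H4c4 are shown beside them for the other families. Each is the 150 bases before the start, 5′ to 3′ on the strand of the gene, with matches to any of the 4 motifs on either strand in capitals.
H1f2, chr13:23738657-23738806, plus strand: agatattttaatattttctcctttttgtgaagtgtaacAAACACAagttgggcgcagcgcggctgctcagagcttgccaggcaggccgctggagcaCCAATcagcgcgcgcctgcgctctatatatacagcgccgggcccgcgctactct
H1f3, chr13:23554882-23555031, plus strand: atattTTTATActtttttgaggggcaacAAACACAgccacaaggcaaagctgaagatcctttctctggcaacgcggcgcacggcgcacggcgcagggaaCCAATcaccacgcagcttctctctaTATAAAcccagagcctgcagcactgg
H1f4, chr13:23622559-23622708, minus strand: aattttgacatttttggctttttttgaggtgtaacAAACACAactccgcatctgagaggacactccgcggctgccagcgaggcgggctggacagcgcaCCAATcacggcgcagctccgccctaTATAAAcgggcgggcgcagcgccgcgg
H1f5, chr13:21780626-21780775, minus strand: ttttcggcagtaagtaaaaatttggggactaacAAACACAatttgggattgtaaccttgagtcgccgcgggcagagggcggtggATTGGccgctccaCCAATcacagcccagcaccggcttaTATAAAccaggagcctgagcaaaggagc
H1f1, chr13:23763518-23763667, plus strand: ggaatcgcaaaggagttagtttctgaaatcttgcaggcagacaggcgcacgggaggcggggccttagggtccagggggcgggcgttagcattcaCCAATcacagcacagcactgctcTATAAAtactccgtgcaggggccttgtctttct
H1f0, chr15:79028062-79028211, plus strand: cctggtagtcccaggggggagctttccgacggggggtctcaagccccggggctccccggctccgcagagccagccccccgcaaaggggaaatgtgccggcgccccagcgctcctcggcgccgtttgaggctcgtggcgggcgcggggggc
H2ac6, chr13:23683960-23684109, minus strand: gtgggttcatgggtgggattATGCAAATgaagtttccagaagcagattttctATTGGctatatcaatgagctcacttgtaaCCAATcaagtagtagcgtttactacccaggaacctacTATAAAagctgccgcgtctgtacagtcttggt
H4c4, chr13:23581418-23581567, plus strand: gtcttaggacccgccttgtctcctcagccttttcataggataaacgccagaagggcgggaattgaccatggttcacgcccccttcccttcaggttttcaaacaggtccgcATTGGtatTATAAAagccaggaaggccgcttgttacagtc
H1f2, H1f3, H1f4 and H1f5 held AAACACA upstream of CCAAT. H1f1 held CCAAT and TATAAA but no AAACACA, and the variant gene H1f0 held none of the 4 motifs in the window searched.

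Histone transcripts took 0.358% to 0.826% of all counts. The libraries held 43818139 to 96674463 counts, and the lowest total belonged to control library 2. Control libraries stood apart from each other in histone level: the share of counts was 0.605% in the unnumbered library, 0.453% in library 1 and 0.358% in library 2. Of the 64 cluster genes, 62 (96.9%) had CPM in the order unnumbered, 1, 2, against 34.1% of the 18053 genes tested, and the median log2 ratio of the unnumbered library to library 2 was 1.25 for cluster genes and 0.02 for all genes. The abundant 7S RNAs took 7.17% to 13.9% of counts, and in the control group they fell in the same order of libraries (11.1%, 9.15% and 7.17%). The part of these library differences in the results was not tested. The other groups were tighter, at 0.710% to 0.749% in labelled Rasa1-KO, 0.743% to 0.826% in Nf2-KO and 0.543% to 0.595% in labelled double-KO libraries.

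Cluster histone mRNA was higher in Nf2-KO and in labelled Rasa1-KO libraries than in each control library. Summed over the 64 cluster genes, CPM was 4183, 2789 and 1852 in the control libraries (unnumbered, 1 and 2), 5191, 5185 and 5539 in labelled Rasa1-KO libraries (same order), 5447, 5388 and 6234 in Nf2-KO libraries (1 to 3) and 4654, 4182 and 3700 in labelled double-KO libraries (1 to 3). The means were 2942 ± 1173, 5305 ± 203, 5690 ± 473 and 4179 ± 477 CPM (SD, n = 3 each). Labelled Rasa1-KO was 1.80-fold and Nf2-KO 1.93-fold the control, with no overlap of libraries. The labelled double-KO was 1.42-fold the control with overlapping libraries, and 0.788-fold the labelled Rasa1-KO with none. In bulk RNA, fewer cells in S phase and less histone mRNA per cell cannot be told apart.

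**Figure D1:**
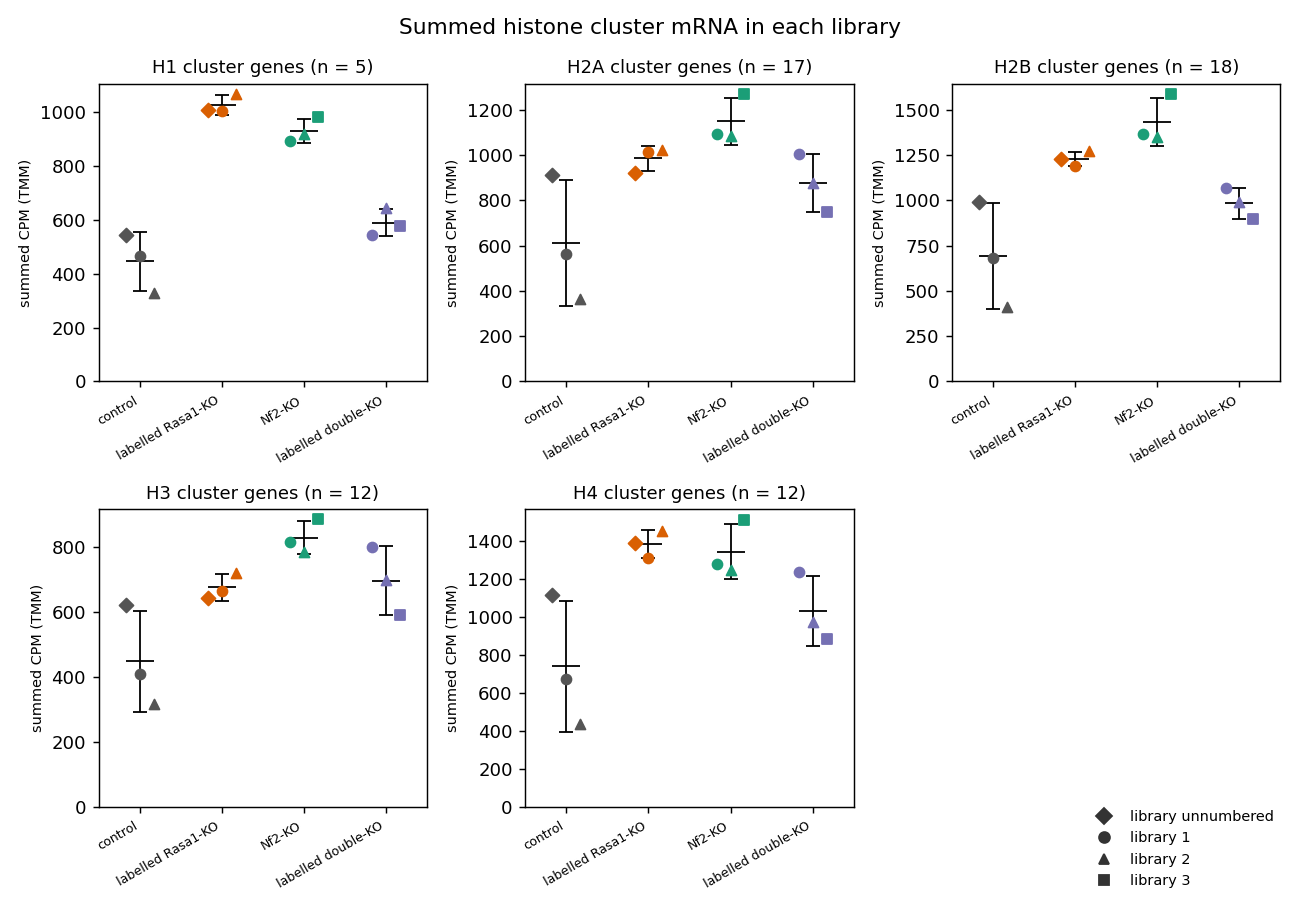
Summed CPM (TMM-scaled, linear axis from 0) of cluster histone genes for each family, with 1 point per library, the symbol giving the library number, and bars for the mean ± SD of 3 libraries. Control libraries spread over the widest range, and for H1 the labelled Rasa1-KO and Nf2-KO libraries (894 to 1070) lie above the labelled double-KO libraries (545 to 643).

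The families kept similar proportions of cluster mRNA on a scale that corrects for length. H4 took 30.1% to 33.6% of summed cluster FPKM (fragments scaled to transcript length and library size) in the group means, H2B 23.4% to 26.0%, H2A 18.3% to 20.6% and H3 11.3% to 14.7%. The FPKM of 1 H2B gene, H2bc6, did not follow its CPM. It was 205, 39.7 and 43.3 in Nf2-KO libraries 1 to 3, where CPM was 102, 99.4 and 119. In control libraries (unnumbered, 1 and 2) FPKM was 35.8, 140 and 80.6, where CPM was 91.0, 66.4 and 38.1. Its part in the H2B share was not tested. H1 took 10.8% ± 1.72 in control and 11.2% ± 0.516 in Nf2-KO libraries, against 13.4% ± 0.0441 under the Rasa1-KO label and 9.76% ± 1.62 under the double-KO label (SD, n = 3 each). The H1 share was thus highest in the labelled Rasa1-KO libraries, where H3 had its lowest share (11.3% ± 0.330).

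Gene by gene, edgeR's quasi-likelihood test over all genes with Benjamini-Hochberg adjustment called 53 of the 75 members for any difference among the 4 groups, all of them histone genes (51 cluster, 2 variant), against 46.3% of the 18053 genes tested. Against control, 62 members rose and 1 fell in Nf2-KO libraries, where 20.6% of genes tested rose and 22.2% fell. In labelled Rasa1-KO libraries 44 rose and 1 fell, where 19.7% rose and 22.2% fell. In labelled double-KO libraries 4 rose and 0 fell at an adjusted p under 0.05, against 4.0% and 2.46% of genes. There 43 members had an unadjusted p under 0.05, and DESeq2 called 16. The share of all genes was not counted for either, so these numbers cannot be set against it. The median log2 fold change of the cluster genes was 0.98 in Nf2-KO, 0.75 in labelled Rasa1-KO and 0.61 in labelled double-KO libraries, beside −0.07, −0.08 and −0.04 for all genes tested. No member passed a change of at least 3-fold with an unadjusted p under 0.05 in any comparison, where 11.4% of genes did in Nf2-KO, 9.27% in labelled Rasa1-KO and 2.03% in labelled double-KO against control, and 5.66% in labelled double-KO against labelled Rasa1-KO.

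One control library weighed on these counts. Without the unnumbered control library, which held the most histone mRNA of the group, 67 members were called in Nf2-KO, 68 in labelled Rasa1-KO and 65 in labelled double-KO against control. The background also rose without it, to 30.6% of 18180 genes higher and 31.0% lower in Nf2-KO, 30.3% and 30.2% in labelled Rasa1-KO, and 17.2% and 12.9% in labelled double-KO. Without control library 1 the counts were 49, 24 and 2. The background was then 16.4% of 18160 genes higher and 18.3% lower in Nf2-KO. It was 15.3% and 17.3% in labelled Rasa1-KO, and 3.0% and 1.56% in labelled double-KO. The number of members called in labelled double-KO libraries therefore went from 2 to 65 with the choice of control libraries. The share of all genes that were higher there went from 3.0% to 17.2%. A majority of members stayed called in Nf2-KO in both cases.

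**Figure D2:**
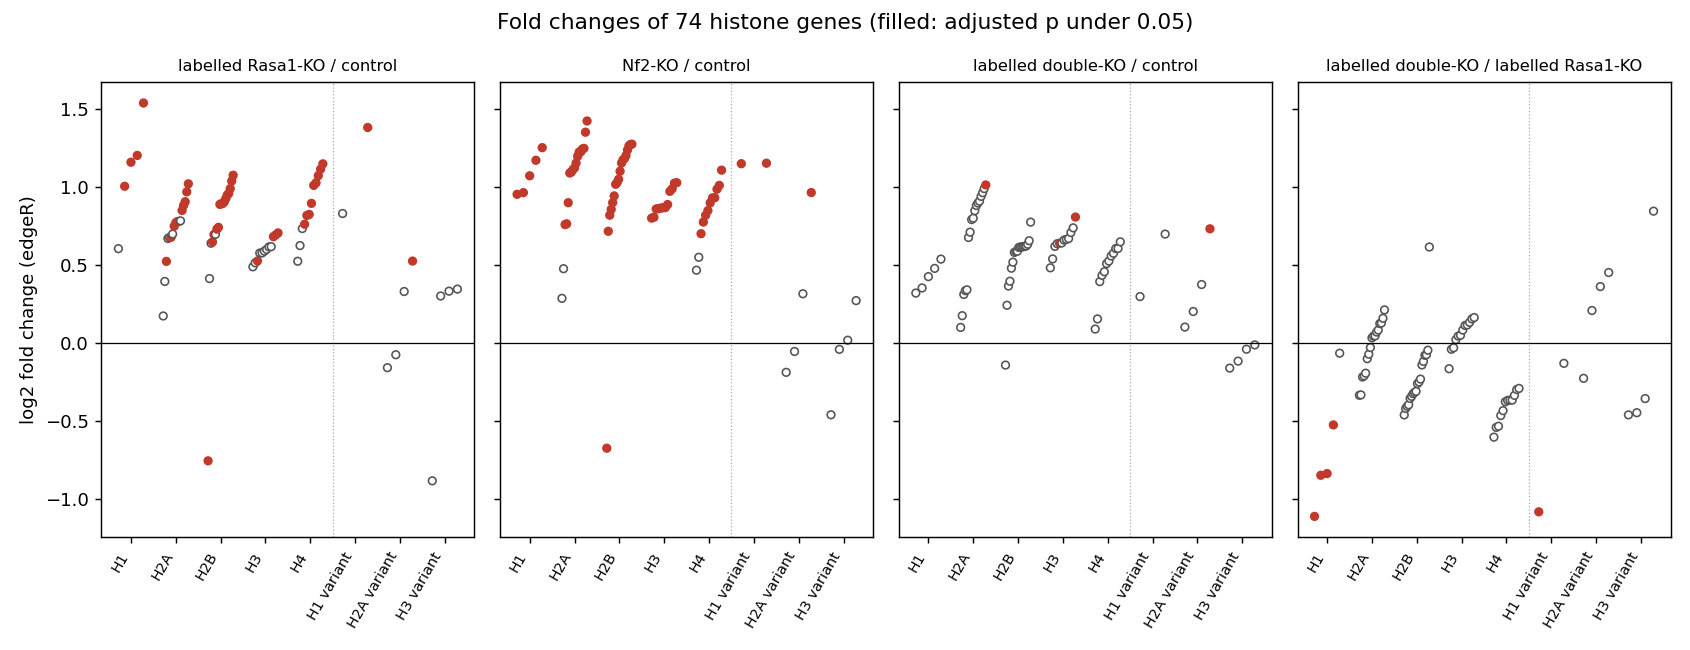
Log2 fold change from edgeR for each of 74 histone genes by family, in 4 comparisons, with filled red points for adjusted p under 0.05 and open points otherwise. Nearly all cluster genes lie above 0 against control, with H2bc21 the filled point below 0, and H1 genes are the filled points below 0 between labelled double-KO and labelled Rasa1-KO.

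Against control, 5 of the 7 linker histone genes rose in labelled Rasa1-KO libraries and 7 in Nf2-KO libraries. Of all genes tested, 19.7% and 20.6% rose there. H1f2 (H1.2), the H1 cluster gene with the highest mean FPKM (279), was at 140, 135 and 84.6 CPM in control libraries, 336, 339 and 367 in labelled Rasa1-KO, 260, 266 and 282 in Nf2-KO and 143, 184 and 155 in labelled double-KO libraries. The first 2 knockout groups lay above each control library and did not overlap each other, and the labelled double-KO libraries lay just above the control range. Its log2 fold change against control was 1.54 ± 0.17 (SE) in labelled Rasa1-KO (edgeR adjusted p = 4.0e-05), 1.17 ± 0.17 in Nf2-KO (edgeR adjusted p = 0.00021) and 0.42 ± 0.17 in labelled double-KO (edgeR adjusted p = 0.173).

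H1f4 (H1.4), the next by mean FPKM (232), had control values of 134, 135 and 107 CPM, labelled Rasa1-KO values of 277, 273 and 288, Nf2-KO values of 238, 243 and 250 and labelled double-KO values of 139, 172 and 157. It rose by a log2 fold change of 1.16 ± 0.11 in labelled Rasa1-KO and 0.96 ± 0.11 in Nf2-KO (edgeR adjusted p = 1.55e-05 and 3.95e-05). H1f3 (H1.3) followed the same order of groups, with 124, 92.0 and 69.9 CPM in control, 216, 215 and 227 in labelled Rasa1-KO, 170, 185 and 198 in Nf2-KO and 115, 127 and 123 in labelled double-KO libraries. H1f3 rose by 1.20 ± 0.17 and 0.95 ± 0.17 in the same comparisons (edgeR adjusted p = 0.000189 and 0.00078).

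The variant H1f0 had the same order of groups. Its CPM was 307, 243 and 174 in control, 620, 610 and 652 in labelled Rasa1-KO, 496, 536 and 573 in Nf2-KO and 287, 304 and 298 in labelled double-KO libraries. The labelled double-KO values fell inside the control range. H1f0 rose by 1.38 ± 0.17 on the log2 scale in labelled Rasa1-KO and 1.15 ± 0.17 in Nf2-KO (edgeR adjusted p = 6.76e-05 and 0.000191), and its value in labelled double-KO was 0.30 ± 0.16 (edgeR adjusted p = 0.332). H1f0 shares no stretch of 100 coding bases with another gene, so reads from its coding sequence belong to 1 gene.

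H1f5 (H1.5) and H1f1 (H1.1) ordered the groups differently, with Nf2-KO highest. H1f5 was at 60.8, 46.1 and 30.9 CPM in control, 90.0, 91.0 and 95.2 in labelled Rasa1-KO, 104, 108 and 116 in Nf2-KO and 62.8, 67.5 and 61.4 in labelled double-KO libraries. H1f1 was at 86.1, 56.7 and 36.4 CPM in control, 89.4, 89.0 and 94.0 in labelled Rasa1-KO, 122, 120 and 135 in Nf2-KO and 84.7, 92.5 and 82.8 in labelled double-KO libraries. Each Nf2-KO value was above each value of the other groups for both genes. H1f1 rose by 1.07 ± 0.23 in Nf2-KO (edgeR adjusted p = 0.00289) and its value in labelled Rasa1-KO was 0.60 ± 0.23 (edgeR adjusted p = 0.0507). H1f5 was outside the rule for named genes and was added because it completes the family. The remaining linker histone, H1f10 (H1.10), was near the detection limit at 0.328 to 1.22 CPM over the 12 libraries, with a log2 fold change of 1.15 ± 0.41 in Nf2-KO (edgeR adjusted p = 0.0424). That call was lost in 9 of 13 alternatives, among them 5 of the 6 that left out 1 library (edgeR adjusted p of 0.0588 to 0.123).

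**Figure D3:**
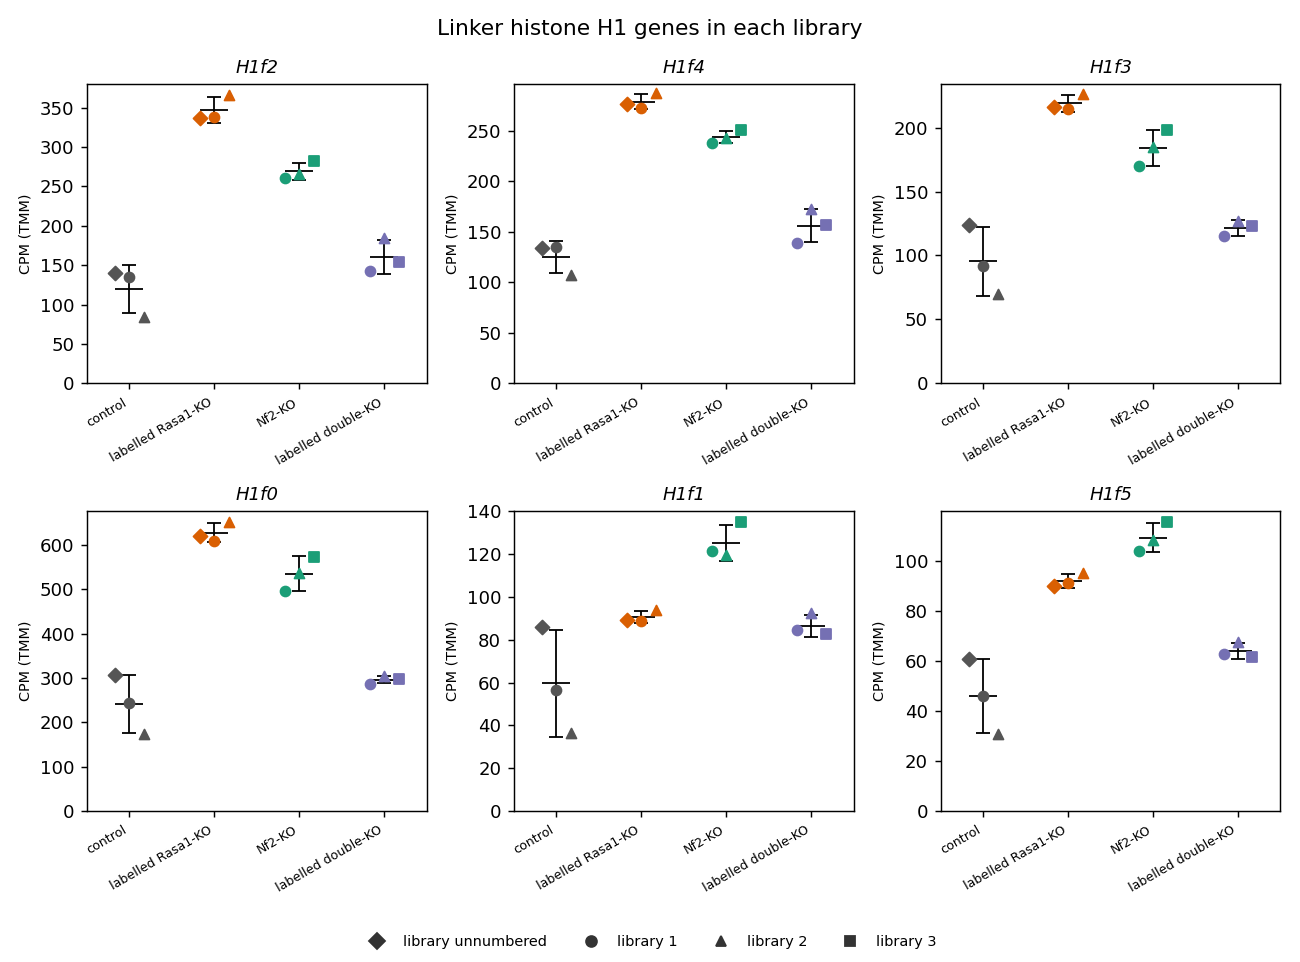
CPM (linear axis from 0) of 6 linker histone genes in each library, with 1 symbol per library number and bars for the mean ± SD of 3 libraries. H1f2, H1f3, H1f4 and H1f0 are highest in labelled Rasa1-KO, H1f1 and H1f5 are highest in Nf2-KO, and all 6 lie lower in labelled double-KO than in Nf2-KO libraries.

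Between labelled double-KO and labelled Rasa1-KO, the calls depended on the fit. In the fit over 4 groups, H1f0, H1f2, H1f3, H1f4 and H1f5 fell and H13, no histone, rose, so that 5 members fell and 1 rose where 14.0% of genes tested fell and 16.3% rose. When only these 2 groups were fitted, 29 members were called, 27 of them lower (5 H1, 3 H2A, 10 H2B, 2 H3 and 7 H4 genes). The share of all genes called in that fit was not counted, so these numbers cannot be set against it. In the fit over 4 groups H1f2 fell by 1.11 ± 0.17 on the log2 scale (edgeR adjusted p = 0.000626), H1f0 by 1.08 ± 0.17 (edgeR adjusted p = 0.000618), H1f3 by 0.85 ± 0.17 (edgeR adjusted p = 0.00291), H1f4 by 0.84 ± 0.11 (edgeR adjusted p = 0.000261) and H1f5 by 0.53 ± 0.18 (edgeR adjusted p = 0.0489). H1f1 had a value of −0.07 ± 0.23 (edgeR adjusted p = 0.851). For the 5 genes that fell, each labelled double-KO library lay below each labelled Rasa1-KO library. H13, which encodes signal peptide peptidase, rose by 0.23 ± 0.08 (edgeR adjusted p = 0.0487), a call lost without any 1 of the 6 libraries compared (edgeR adjusted p of 0.0978 to 0.169). Its FPKM went the other way, at 31.8, 43.1 and 37.7 in labelled Rasa1-KO and 23.9, 23.7 and 24.6 in labelled double-KO libraries. The calls of H1f0, H1f2, H1f3 and H1f4 in this comparison were kept in each of 13 alternatives. That of H1f5 was lost in 8 of the 13, among them each of the 6 that left out 1 library (edgeR adjusted p of 0.0907 to 0.151).

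No core histone was called in that comparison in the fit over 4 groups, whereas 22 were lower and 1 higher in the fit of only the 2 groups. No share over all genes was counted for the latter fit. The median log2 fold change was 0.03 over 17 H2A cluster genes, −0.29 over 18 H2B genes, 0.06 over 12 H3 genes and −0.37 over 12 H4 genes, beside 0.00 over all genes tested. The 12 H4 genes all had values below 0, from −0.60 to −0.29. For H2A the sum and the median differed in sign. Summed H2A CPM in labelled double-KO was 0.890-fold the labelled Rasa1-KO, with overlapping libraries. Summed CPM went the same way as the median for H4 and H3. H4 was at 1389, 1310 and 1454 in labelled Rasa1-KO and 1238, 973 and 885 in labelled double-KO libraries. H3 was at 642, 664 and 721 against 801, 699 and 589. The H4 sums did not overlap and the H3 sums did.

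The H2A and H2B genes were the most numerous cluster genes. Of 17 H2A cluster genes, 15 rose in Nf2-KO, 11 in labelled Rasa1-KO and 1 in labelled double-KO libraries. Of all genes tested, 20.6%, 19.7% and 4.0% rose and 22.2%, 22.2% and 2.46% fell in these comparisons. Of 18 H2B cluster genes, 17 rose and 1 fell in Nf2-KO, 14 rose and 1 fell in labelled Rasa1-KO and 0 were called in labelled double-KO. Many of these genes are near copies: over 50% of the 100-base coding windows recurred in another member for 13 of the H2A and 10 of the H2B genes. In H2aw and H2bc18 every window, and in H2ac21 52.7% of them, recurred in other genes, mostly outside the members, so the split of reads between single genes is uncertain and family sums are given beside them. How reads with several matches were counted is not given in the sources used here.

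Hist1h2ao, an H2A cluster gene, had the largest fold change in Nf2-KO and again in labelled double-KO among members called. Its CPM was 21.2, 13.8 and 8.99 in control, 24.9, 30.8 and 30.4 in labelled Rasa1-KO, 36.2, 42.5 and 39.3 in Nf2-KO and 32.3, 31.8 and 24.6 in labelled double-KO libraries. It rose by 1.42 ± 0.25 in Nf2-KO, 0.97 ± 0.25 in labelled Rasa1-KO and 1.01 ± 0.25 in labelled double-KO (edgeR adjusted p = 0.000753, 0.00853 and 0.0314), and each knockout library lay above each control library. The call in labelled double-KO was lost without control library 1 or any labelled double-KO library (edgeR adjusted p of 0.0634 to 0.115). Each 100-base window of its coding sequence recurs in Hist1h2ap, which had 1.35 ± 0.30 in Nf2-KO (edgeR adjusted p = 0.00339), so the pair cannot be separated by coding reads.

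The H2B pair Hist1h2bq and Hist1h2br is alike in the same way. Hist1h2br was at 90.2, 66.7 and 38.7 CPM in control, 134, 130 and 137 in labelled Rasa1-KO, 149, 149 and 174 in Nf2-KO and 104, 102 and 94.1 in labelled double-KO libraries. Hist1h2bq was at 54.9, 39.4 and 21.9, then 82.2, 79.6 and 83.0, then 89.2, 89.0 and 103, then 62.5, 59.6 and 55.6 CPM in the same order. In Nf2-KO libraries the log2 fold change of both was 1.27 (SE 0.24 for Hist1h2bq and 0.23 for Hist1h2br, edgeR adjusted p = 0.00139 and 0.000876).

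The core genes with the highest FPKM lie outside the large cluster on chromosome 13 for H2A and H2B. H2ac18 and H2ac19, whose coding windows are the same, had mean FPKM of 338 and 320, and H2bc18, whose coding windows all recur outside the members, 339. H2ac18 was at 221, 141 and 88.2 CPM in control, 224, 244 and 250 in labelled Rasa1-KO, 241, 237 and 284 in Nf2-KO and 216, 189 and 164 in labelled double-KO libraries. It rose by 0.76 ± 0.25 in Nf2-KO and 0.68 ± 0.25 in labelled Rasa1-KO (edgeR adjusted p = 0.0296 and 0.0491), with the knockout libraries just above the highest control. H2ac19 ran in parallel, with 0.76 ± 0.25 in Nf2-KO (edgeR adjusted p = 0.0301) and 0.67 ± 0.25 in labelled Rasa1-KO (edgeR adjusted p = 0.0506). H2bc18 was at 204, 122 and 76.9 CPM in control and 227, 220 and 263 in Nf2-KO libraries, and rose there by 0.82 ± 0.26 (edgeR adjusted p = 0.0256). The unnumbered control library nearly reached the knockout values. The H2ac18 and H2ac19 calls in Nf2-KO were lost without control library 1 or any Nf2-KO library (edgeR adjusted p of 0.0538 to 0.0976), that of H2bc18 without control library 1 or Nf2-KO library 3 (edgeR adjusted p of 0.0797 to 0.0833), and that of H2ac18 in labelled Rasa1-KO without any library except the unnumbered control (edgeR adjusted p of 0.0835 to 0.122).

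H2bc21 was the 1 member that fell against control. It is an H2B gene known in mouse from olfactory neurons, and its annotated 3′ end holds no stem-loop match. It was expressed at 5.35, 4.36 and 3.33 CPM in control, 3.34, 2.18 and 2.22 in labelled Rasa1-KO, 2.34, 3.01 and 2.83 in Nf2-KO and 4.12, 4.0 and 3.71 in labelled double-KO libraries. It fell by 0.68 ± 0.22 in Nf2-KO, without overlap, and by 0.76 ± 0.22 in labelled Rasa1-KO, where the highest knockout library met the lowest control (edgeR adjusted p = 0.029 and 0.0181). The call in Nf2-KO was lost without 5 of the 6 libraries in turn, Nf2-KO and control, the exception being control library 2 (edgeR adjusted p of 0.0506 to 0.105). That in labelled Rasa1-KO was lost without its library 1 or 2 (edgeR adjusted p of 0.0736 to 0.0774). The coding sequence of H2bc21 shared no 100-base window with another histone gene.

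H3 genes were called more often in Nf2-KO than in labelled Rasa1-KO libraries, at 12 and 4 of 12, although the difference between these counts was not tested. Of all genes tested, 20.6% and 19.7% rose in these comparisons. The log2 fold changes of the 12 H3 genes ran from 0.80 to 1.03 in Nf2-KO and 0.49 to 0.70 in labelled Rasa1-KO. These are ranges over genes and do not measure the spread between libraries. For 9 of the 12, over 50% of coding windows recurred in another member, and both comparisons used the same control libraries. H3c2, with the highest mean FPKM of the H3 cluster genes (124), was at 66.9, 37.9 and 29.4 CPM in control, 62.4, 66.6 and 71.3 in labelled Rasa1-KO, 85.4, 84.7 and 93.1 in Nf2-KO and 84.5, 74.4 and 60.3 in labelled double-KO libraries. H3c2 rose by 0.97 ± 0.24 in Nf2-KO (edgeR adjusted p = 0.00735), and its labelled Rasa1-KO libraries overlapped the control. H3c10, the next (119), was at 61.9, 36.2 and 30.4 CPM in control and 73.9, 74.8 and 85.6 in Nf2-KO libraries, and rose by 0.86 ± 0.23 (edgeR adjusted p = 0.0105).

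The H3 genes called in labelled double-KO libraries were H3c3 and H3c6. H3c6 was at 67.0, 56.6 and 45.4 CPM in control, 87.4, 85.4 and 98.1 in labelled Rasa1-KO, 93.9, 90.5 and 110 in Nf2-KO and 90.5, 91.6 and 81.0 in labelled double-KO libraries. Each knockout library was above each control library, and H3c6 rose by 0.68 ± 0.14, 0.80 ± 0.14 and 0.64 ± 0.14 in the 3 comparisons in that order (edgeR adjusted p = 0.00244, 0.000753 and 0.019). H3c3 was at 31.9, 20.4 and 16.5 CPM in control and 47.6, 38.9 and 33.9 in labelled double-KO libraries, with a log2 fold change of 0.81 ± 0.21 (edgeR adjusted p = 0.0429). In labelled double-KO the H3c6 call was lost without its library 2 or 3 (edgeR adjusted p of 0.0579 to 0.0848) and the H3c3 call without 5 of the 6 libraries in turn, the exception being the unnumbered control (edgeR adjusted p of 0.0719 to 0.118).

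H4 genes encode 1 protein from many copies and held the most cluster mRNA per length. Of 12, 10 rose in Nf2-KO, 9 in labelled Rasa1-KO and 0 in labelled double-KO libraries, where 20.6%, 19.7% and 4.0% of all genes rose. H4c4, which shares no 100-base coding window with another gene, was at 134, 109 and 72.7 CPM in control, 187, 179 and 192 in labelled Rasa1-KO, 184, 172 and 212 in Nf2-KO and 155, 138 and 139 in labelled double-KO libraries. The 3 knockout groups lay above the control range, and H4c4 rose by 0.82 ± 0.18 in labelled Rasa1-KO and 0.85 ± 0.18 in Nf2-KO (edgeR adjusted p = 0.00355 and 0.0027). Hist1h4n, with the highest mean FPKM of all cluster genes named (399), was at 172, 96.8 and 58.2 CPM in control, 245, 220 and 241 in labelled Rasa1-KO, 204, 206 and 247 in Nf2-KO and 178, 152 and 135 in labelled double-KO libraries. It rose by 1.11 ± 0.29 and 1.01 ± 0.29 in the first 2 (edgeR adjusted p = 0.0102 and 0.0156), and its coding windows are the same as those of Hist1h4m. The call in Nf2-KO was lost without control library 1 or Nf2-KO library 3 (edgeR adjusted p of 0.0562 to 0.0569).

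Calls were also counted by how much coding sequence a gene shares with any other gene, member or not. Among 23 cluster genes with at most 50% of coding windows shared, 19 rose and 1 fell in Nf2-KO and 16 rose and 1 fell in labelled Rasa1-KO libraries. Among the 41 with more, 40 and 26 rose. The 41 genes with a stem-loop had 38 that rose in Nf2-KO, 31 in labelled Rasa1-KO and 4 in labelled double-KO libraries. In these comparisons 20.6%, 19.7% and 4.0% of all genes rose and 22.2%, 22.2% and 2.46% fell.

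Among the 10 variant genes, 3 rose in Nf2-KO (H1f0, H1f10 and H2afx), 2 in labelled Rasa1-KO (H1f0 and H2afx) and 1 in labelled double-KO libraries (H2afx). Of all genes tested, 20.6%, 19.7% and 4.0% rose in these comparisons, so with 10 genes these counts lie close to the shares. H2afx, the variant with a stem-loop, was at 64.1, 44.5 and 42.9 CPM in control, 69.7, 73.6 and 74.5 in labelled Rasa1-KO, 94.8, 96.9 and 103 in Nf2-KO and 93.7, 85.3 and 72.1 in labelled double-KO libraries. Each knockout library was above each control library. H2afx rose by 0.52 ± 0.15, 0.96 ± 0.15 and 0.73 ± 0.15 on the log2 scale in labelled Rasa1-KO, Nf2-KO and labelled double-KO libraries (edgeR adjusted p = 0.016, 0.000359 and 0.0149). The first call was lost without control library 1 or labelled Rasa1-KO library 2 (edgeR adjusted p of 0.0516 to 0.0602) and the last without labelled double-KO library 2 (edgeR adjusted p = 0.0614).

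The genes for H3.3 (H3f3a and H3f3b) and H2A.Z (H2afz and H2afv), variants used outside S phase, were not called in any comparison. H3f3b was the variant with the highest mean FPKM (297) and was at 596, 616 and 541 CPM in control, 744, 724 and 755 in labelled Rasa1-KO, 660, 734 and 720 in Nf2-KO and 437, 649 and 650 in labelled double-KO libraries. Its log2 fold change was 0.34 ± 0.14 in labelled Rasa1-KO and 0.27 ± 0.14 in Nf2-KO (edgeR adjusted p = 0.0741 and 0.147), although both groups lay above the control range. H3f3a (mean FPKM 283) was at 465, 268 and 261 CPM in control, 454, 367 and 403 in labelled Rasa1-KO, 298, 324 and 343 in Nf2-KO and 333, 271 and 285 in labelled double-KO libraries, so that the unnumbered control library exceeded all others. The 2 genes for H3.3 had similar FPKM, and neither met the threshold.

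H2afz (mean FPKM 247), whose coding windows all recur in genes outside the members, was at 367, 218 and 181 CPM in control, 331, 307 and 322 in labelled Rasa1-KO, 293, 314 and 344 in Nf2-KO and 330, 250 and 241 in labelled double-KO libraries. H2afv (mean FPKM 37.5) was at 104, 56.9 and 46.6, then 62.2, 59.9 and 63.9, then 58.3, 58.1 and 65.9, then 108, 65.4 and 65.7 CPM. For both H2A.Z genes the unnumbered control library lay inside or above the range of the knockouts. H2afj, which encodes H2A.J, was at 35.1, 21.9 and 13.9 CPM in control and 20.0 to 38.6 in the other 9 libraries, with log2 fold changes of −0.08 ± 0.27, −0.06 ± 0.27 and 0.37 ± 0.27 against control. H3f3c was at 2.86 to 6.28 CPM and H3f4 at 0.0425 to 0.496 CPM over the 12 libraries, too low for H3f4 to be compared.

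**Figure D4:**
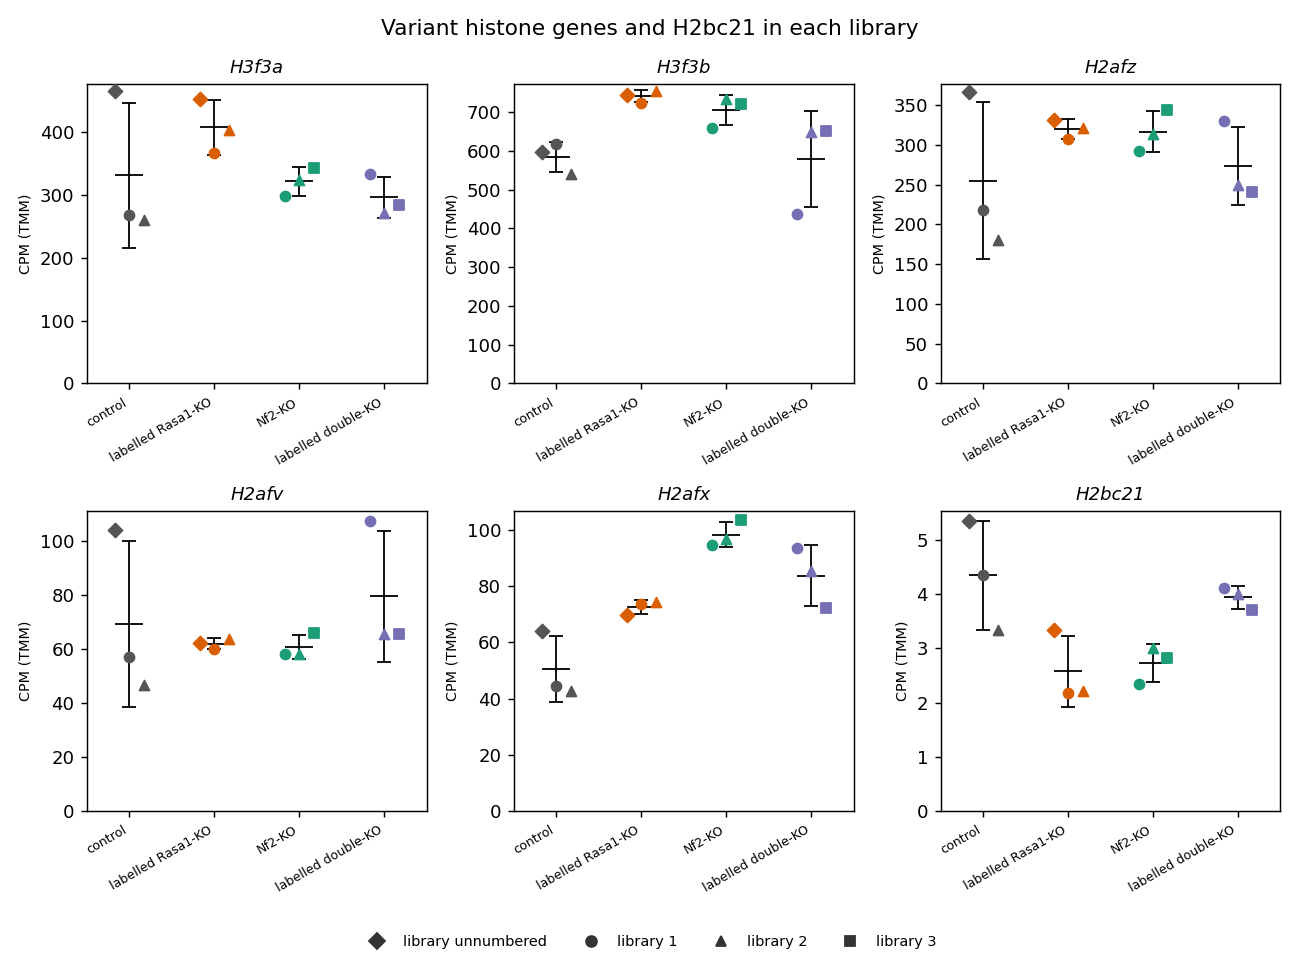
CPM (linear axis from 0) of 5 variant histone genes and of the cluster gene H2bc21 in each library, with 1 symbol per library number and bars for the mean ± SD of 3 libraries. The knockout libraries clear the control range for H2afx, overlap it for H3f3a, H2afz and H2afv, and lie lower than control for H2bc21 in Nf2-KO.

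Genes that make and process histone mRNA were read from a list of 24 genes, of which 21 were tested and the others were not analysed here. In Nf2-KO libraries 7 rose and 1 fell, where 20.6% and 22.2% of all genes did, in labelled Rasa1-KO 1 rose and 1 fell, where 19.7% and 22.2% did, and in labelled double-KO 0 were called (edgeR). Lsm11, part of the U7 particle that cleaves histone pre-mRNA, rose by 0.95 ± 0.12 in Nf2-KO and 0.84 ± 0.12 in labelled Rasa1-KO (edgeR adjusted p = 5.41e-05 and 0.000171) and fell by 0.49 ± 0.11 between labelled double-KO and labelled Rasa1-KO (edgeR adjusted p = 0.00784). In that last comparison 3 genes of the list rose, namely E2f4, Upf1 and Tut7, by 0.46 ± 0.16, 0.42 ± 0.10 and 0.31 ± 0.09 (edgeR adjusted p = 0.0465, 0.00734 and 0.018). There 16.3% of all genes rose and 14.0% fell. Slbp, which binds the stem-loops shown above, rose by 0.64 ± 0.20 in Nf2-KO (edgeR adjusted p = 0.0248). Upf1, a helicase that acts in histone mRNA decay, fell by 0.37 ± 0.10 in Nf2-KO and by 0.53 ± 0.10 in labelled Rasa1-KO (edgeR adjusted p = 0.00912 and 0.0013).

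Histone chaperones and import factors were a list of 30 genes. Of these, 10 rose and 5 fell in Nf2-KO (20.6% and 22.2% of all genes), 6 rose and 7 fell in labelled Rasa1-KO (19.7% and 22.2%) and 0 were called in labelled double-KO libraries. Npm1, a nucleolar histone chaperone, rose by 1.22 ± 0.22 in Nf2-KO and 1.34 ± 0.22 in labelled Rasa1-KO (edgeR adjusted p = 0.00108 and 0.000665). Hat1, which acetylates new H4, rose by 0.92 ± 0.16 and 0.62 ± 0.16 (edgeR adjusted p = 0.000818 and 0.0101). Srcap, the ATPase that loads H2A.Z, fell by 1.38 ± 0.42 and 1.58 ± 0.42 (edgeR adjusted p = 0.0209 and 0.0113), and Hira, which deposits H3.3, fell by 0.71 ± 0.22 in Nf2-KO (edgeR adjusted p = 0.0242).

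Genes of S phase and of mitosis were read from lists of 40 and 20 genes. Of 40 S phase genes, 33 rose in Nf2-KO, 16 in labelled Rasa1-KO and 5 in labelled double-KO libraries, and 0 fell. Of 20 mitosis genes, 20, 19 and 15 rose and 0 fell. Of all genes tested, 20.6%, 19.7% and 4.0% rose and 22.2%, 22.2% and 2.46% fell in these comparisons. Summed CPM of the S phase list was 957 to 1480 in control, 1640 to 1666 in labelled Rasa1-KO, 1978 to 2083 in Nf2-KO and 1428 to 1499 in labelled double-KO libraries. Dut and Rrm2, which supply nucleotides for replication, rose by 1.55 ± 0.16 and 1.49 ± 0.12 in labelled Rasa1-KO (edgeR adjusted p = 2.52e-05 and 2.62e-06) and fell by 1.05 ± 0.16 and 0.78 ± 0.11 between labelled double-KO and labelled Rasa1-KO (edgeR adjusted p = 0.000618 and 0.000437). Between labelled double-KO and labelled Rasa1-KO, 6 S phase genes fell and 3 rose, and 11 mitosis genes fell and 1 rose, where 14.0% of all genes fell and 16.3% rose. The part of cell cycle genes in the histone differences was not tested.

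Markers of the labelled tissue and of other cell types were read beside these results. Krt8, an epithelial keratin, was at 840 to 1758 FPKM in the 12 libraries, while the gastric marker Cldn18 was at 0.0359 to 0.158 FPKM. Ptprc, the defining immune marker, was at 0.0166 to 0.0971 FPKM, and the endothelial markers Pecam1 and Kdr were at 0.0465 to 0.254 and 0.0146 to 0.156 FPKM. The immune list moved by Cd68 alone of 2 genes, with summed CPM of 5.67 to 8.73 in control, 20.0 to 22.7 in labelled Rasa1-KO, 14.3 to 15.1 in Nf2-KO and 7.22 to 16.3 in labelled double-KO libraries, and the 2 endothelial genes summed to 0.552 to 1.53 CPM over the 12 libraries. The fibroblast markers moved with the groups: 3 of 4 rose and 1 fell in Nf2-KO and in labelled Rasa1-KO libraries. Their summed CPM was 33.2 to 104 in control and 144 to 186 in labelled Rasa1-KO libraries. It was 571 to 661 in Nf2-KO and 18.2 to 25.4 in labelled double-KO libraries. The gene that fell was Dcn. Among those that rose, Col1a2 was at 0.00306 to 0.0944 FPKM in control and 4.86 to 5.24 in labelled Rasa1-KO libraries. It was at 23.2 to 24.5 FPKM in Nf2-KO and 0.0104 to 0.0489 in labelled double-KO libraries. Of 8 gastric markers, 4 rose and 2 fell in labelled Rasa1-KO, 2 fell in Nf2-KO, and 1 rose and 2 fell in labelled double-KO. The 2 that fell were Epcam and Muc5ac each time. Epcam was at 27.7 to 31.7 FPKM in control and 9.16 to 9.79 in labelled Rasa1-KO libraries. It was at 4.43 to 4.89 FPKM in Nf2-KO and 9.96 to 18.6 in labelled double-KO libraries. Muc5ac was at 0.33 to 0.693, 0.0262 to 0.0359, 0.00911 to 0.0395 and 0.109 to 0.167 FPKM in the same order. CPM summed over the 8 markers was 3152 to 6078 in control and 7051 to 7418 in labelled Rasa1-KO libraries. The sum was 4809 to 5360 in Nf2-KO and 5915 to 6845 in labelled double-KO libraries. The part of these markers in the histone results was not tested.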

How the data were processed

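RNA from 12 libraries (TruSeq Stranded Total RNA Gold) was sequenced by the authors. Per the labels and the study's methods, reads were trimmed with Trimmomatic 0.38, aligned to mm10 with HISAT2 2.1.0, handled with SAMtools 1.9 and assembled against RefSeq with StringTie 2.1.3b. The treatment of reads with several matches is not given in the sources used here. The authors deposited raw read counts, FPKM values, TPM values and log2-transformed values per gene. Counts were used for tests and FPKM to compare levels between genes; the deposited TPM and log2 columns were not used. The tables list genes with at least 1 count in each library, so histone genes without counts in some library were not analysed here. Libraries held 43818139 to 96674463 counts. Standard errors come from the edgeR fit and include the spread between libraries.

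One edgeR 4.0.16 quasi-likelihood fit (R 4.3.3, limma 3.58.1) over the 4 groups used TMM scaling and filterByExpr, leaving 18053 of 18926 genes. Benjamini-Hochberg adjustment ran over all genes tested, with calls at adjusted p under 0.05. On simulated counts for Nf2-KO against control (17971 genes), 166 of 200 genes changed were called, with 5 others. The raised genes had a median log2 fold change of 1.96 there, above the highest of any member in Nf2-KO (1.42). The simulation therefore does not give the share called among changes as small as those of the members. DESeq2 1.42.0, DESeq2 size factors (RLE), no filter, a protein-coding library size, a replicate block, fits of only the groups compared, exchanged labels and each library left out were alternatives.

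Genes chosen to be named were the 2 cluster genes with the highest mean FPKM per family, up to 4 rising and 4 falling most per comparison, and all variants. For some of them the text gives only part of the libraries, ranges or fold changes. From the other lists, up to 3 rising and 3 falling genes per comparison could be named. The members, lists and motifs were chosen with earlier results of these data known. Sequence sharing was computed over coding windows of 100 bases. RefSeq promoters matched 69 of the 75 members.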

Additional observations from a re-analysis of the deposited data

How the results depend on the processing

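The summed CPM of cluster genes kept its direction under RLE, total-count and protein-coding scaling, with summed FPKM, and with each library left out, the alternatives run for it. With 1 library left out, its log2 ratio ran from 0.71 to 1.29 in Nf2-KO, 0.61 to 1.19 in labelled Rasa1-KO, 0.26 to 0.85 in labelled double-KO (each against control) and −0.43 to −0.26 for labelled double-KO against labelled Rasa1-KO. Scaling by total counts instead of TMM shifted the fold changes against control by −0.15, −0.09 and −0.12 on the log2 scale for labelled Rasa1-KO, Nf2-KO and labelled double-KO, and the other scalings by at most 0.02.

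Counts of members called moved more. With 1 library left out they ran from 49 to 67 in Nf2-KO, 21 to 68 in labelled Rasa1-KO, 0 to 65 in labelled double-KO, 4 to 5 for labelled double-KO against labelled Rasa1-KO, and 20 to 71 for any difference. For these fits the share of all genes was counted only for comparisons with control where a control library was left out. The 68, 65 and 71 came without the unnumbered control library, and without control library 1 the counts were 24 in labelled Rasa1-KO, 2 in labelled double-KO and 20 for any difference. Labelled Rasa1-KO had 27 without its unnumbered library and 21 without its library 2, the count for any difference was 25 without Nf2-KO library 3, and labelled double-KO had 2, 0 and 1 without its libraries 1, 2 and 3. The 0 stood beside 30 members with an unadjusted p under 0.05.

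For labelled double-KO against control, DESeq2 called 16. Fitting only the groups compared, edgeR called 14 in labelled Rasa1-KO, 40 in Nf2-KO, 0 in labelled double-KO (17 at an unadjusted p under 0.05) and 29 for labelled double-KO against labelled Rasa1-KO, of which 27 were lower and 2 higher. The share of all genes called was not counted for DESeq2, RLE scaling, a protein-coding library size or these fits. Nor was it counted at an unadjusted p under 0.05 alone. With labels exchanged, Rasa1-KO had 4 members called against control, and double-KO 45. A change of at least 3-fold with an unadjusted p under 0.05 gave 0 in all 4 comparisons with edgeR, where 62, 63, 43 and 9 had an unadjusted p under 0.05 alone (labelled Rasa1-KO, Nf2-KO and labelled double-KO against control, then the last comparison). The 1 higher and 5 lower of the last comparison became 0 and 4 with RLE scaling, 2 and 5 with DESeq2 and 2 and 5 with a protein-coding library size.

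The replicate numbers did not pair the libraries, since deviations of same-numbered libraries correlated at −0.379 to 0.399. With the replicate block, which leaves out the libraries without a number, labelled double-KO had 59 members called, and without the block on the same 10 libraries (chosen after seeing the data) 65, and 10 for labelled double-KO against labelled Rasa1-KO. The cause of these differences was not tested, and no share of all genes was counted for the fits on 10 libraries. Of 572 alternative values of 44 named fold changes, 489 kept their call, 83 lost it and 0 changed sign.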

Other observations

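A few histone genes carry symbols outside the rule, and they were named after their values were seen. Macroh2a2, which encodes a macroH2A, was at 0.924, 0.640 and 1.07 CPM in control libraries, 1.49 to 1.98 in labelled Rasa1-KO, 3.60, 3.46 and 3.56 in Nf2-KO and 1.04, 0.763 and 0.502 in labelled double-KO libraries. It rose by a log2 fold change of 2.01 ± 0.28 (SE) in Nf2-KO and 1.03 ± 0.28 in labelled Rasa1-KO (edgeR adjusted p = 0.000163 and 0.0121), and fell by 1.22 ± 0.28 between labelled double-KO and labelled Rasa1-KO (edgeR adjusted p = 0.00717). Its level was low throughout. Macroh2a1, the other macroH2A gene, stayed between 86.4 and 117 CPM, with log2 fold changes of 0.04 ± 0.11, 0.00 ± 0.11 and −0.03 ± 0.11 in labelled Rasa1-KO, Nf2-KO and labelled double-KO (edgeR adjusted p = 0.784, 0.997 and 0.897).

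Cenpa, the H3 variant of centromeres and also a member of the mitosis list, was at 9.39 to 13.8 CPM in control, 19.4 to 21.3 in labelled Rasa1-KO, 24.7 to 25.0 in Nf2-KO and 12.9 to 14.5 in labelled double-KO libraries. It rose by 0.86 ± 0.13 in labelled Rasa1-KO and 1.15 ± 0.14 in Nf2-KO and fell by 0.54 ± 0.13 between labelled double-KO and labelled Rasa1-KO (edgeR adjusted p = 0.000441, 4.21e-05 and 0.0101). H2c8, whose symbol places it with the clustered genes, was at 191, 95.4 and 70.1 CPM in control libraries and 116 to 204 in the others, and was not called in any comparison (edgeR adjusted p of 0.154 to 0.588). Its mean FPKM was 315, in the range of the highest cluster genes, and the cluster counts and sums above leave it out.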
